A study of Mus musculus with 8 samples.

Results

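Genes of cholesterol synthesis, uptake and efflux were followed in mouse cultures labelled renal fibroblasts, with and without Cre recombinase. With them were 4 fatty acid synthesis genes that share their control. The set was drawn by gene symbol and holds 33 of the 22322 genes in the deposited table. It falls into 17 enzymes of cholesterol synthesis, 5 genes of SREBP control, 3 genes of uptake, transport and esterification, 4 genes of LXR signalling and efflux, and 4 genes of fatty acid synthesis. All 33 had enough reads to be tested, so none was lost to the filter on low counts.

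One set of cultures, labelled primary renal fibroblasts, was infected with an adenovirus encoding Cre (Ad-Cre, n = 4). Their genotype is given as a knockdown of the histone methyltransferase gene Suv39h1. They were compared with cultures infected with an adenovirus encoding GFP (Ad-GFP, n = 4), given as wild type. Both groups had received TGF-β, the cytokine that drives fibroblasts toward myofibroblasts, at 5 ng/ml for 48 hours, so the comparison holds no unstimulated cells. The labels name no floxed allele, mouse strain or age, and do not say whether replicates were separate cultures or animals, so each p-value reflects the spread among these samples alone, which may be technical. Loss of Suv39h1 and presence of Cre cannot be told apart in this design.

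Cells make cholesterol from acetyl-CoA through the mevalonate pathway, squalene and lanosterol, and animal cells add to this supply by taking up lipoproteins. When sterols in the endoplasmic reticulum run low, the escort protein SCAP carries SREBP transcription factors to the Golgi, where they are cleaved and then switch on synthesis and uptake genes. INSIG proteins hold SCAP back when sterols are plentiful. Oxysterols that build up with excess cholesterol activate the nuclear receptors LXRα and LXRβ, which raise the efflux pumps ABCA1 and ABCG1.

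Promoter sequences of 4 members whose levels changed are given first, as the places where such factors act. They come from RefSeq's annotation of GRCm38.p6 and run from 250 bases before to 50 bases after a gene's start, 5′ to 3′ on the gene's own strand. Capitals mark each match, on either strand, to the sterol response element TCACNCCAC, the CCAAT box and the E-box CACGTG; no 2 matches overlap. Hmgcs1 is shown because it was the only one of the 26 members with a listed promoter that held a match to the sterol response element as spelled here, Hsd17b7 and Srebf2 because they had the smallest p-values among the rises with a promoter in the table, and Abca1 because it was the single fall.
Hmgcs1, chr13:119690101-119690400, plus strand: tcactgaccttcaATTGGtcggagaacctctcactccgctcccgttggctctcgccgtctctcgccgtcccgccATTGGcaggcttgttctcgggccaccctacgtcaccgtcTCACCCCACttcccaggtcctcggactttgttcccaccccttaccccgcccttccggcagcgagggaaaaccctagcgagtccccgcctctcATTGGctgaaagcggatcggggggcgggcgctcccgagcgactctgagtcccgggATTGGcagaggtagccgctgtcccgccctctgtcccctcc
Hsd17b7, chr1:169969156-169969455, minus strand: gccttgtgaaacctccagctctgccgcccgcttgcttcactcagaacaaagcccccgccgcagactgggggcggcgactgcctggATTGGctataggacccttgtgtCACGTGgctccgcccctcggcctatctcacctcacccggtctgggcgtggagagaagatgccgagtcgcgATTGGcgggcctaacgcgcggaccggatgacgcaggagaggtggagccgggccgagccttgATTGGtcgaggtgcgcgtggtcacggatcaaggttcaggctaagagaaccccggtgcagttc
Srebf2, chr15:82147019-82147318, plus strand: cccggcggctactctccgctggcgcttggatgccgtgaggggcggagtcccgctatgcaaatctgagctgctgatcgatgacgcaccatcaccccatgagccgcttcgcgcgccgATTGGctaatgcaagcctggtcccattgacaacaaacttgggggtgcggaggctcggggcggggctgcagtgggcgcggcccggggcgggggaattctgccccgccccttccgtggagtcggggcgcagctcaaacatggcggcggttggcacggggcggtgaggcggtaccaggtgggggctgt
Abca1, chr4:53159846-53160145, minus strand: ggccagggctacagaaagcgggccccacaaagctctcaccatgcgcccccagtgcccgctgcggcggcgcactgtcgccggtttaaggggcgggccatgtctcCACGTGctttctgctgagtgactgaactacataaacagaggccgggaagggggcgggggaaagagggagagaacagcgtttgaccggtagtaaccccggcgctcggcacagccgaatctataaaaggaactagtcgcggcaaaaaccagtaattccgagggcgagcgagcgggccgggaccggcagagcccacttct

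A promoter was listed for 26 of the 33 members, 35 promoters in all, and none for Fdps, Fdft1, Sqle, Stard4, Abcg1, Scd1 or Scd2. The CCAAT box, the site of the factor NF-Y, was found in 22 of these 35 promoters (62.9%), whereas 37.4% of all 32851 listed promoters hold one. The GC box GGGCGG was found in 25 of the 35 (71.4%), against 35.7% of all promoters, and the E-box in 7 of the 35, against 7.15%. The sterol response element was found in 1 of the 35 (2.86%), against 1.24% of all promoters. It was searched in 1 spelling only, so sterol response elements spelled otherwise were missed. The LXR element, searched only as an exact direct repeat of AGGTCA spaced by 4 bases, was found in 0 of the 35. Just 5 of all 32851 promoters (0.0152%) hold that spelling, so its absence here says nothing of LXR elements spelled otherwise. These are counts of letters in a short window and say nothing of binding.

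Library totals were 18006938 to 23940043 counts in Ad-Cre and 15879244 to 17930632 counts in Ad-GFP, so each Ad-Cre library was the deeper. Where 4 values of a group follow each other, they are replicates 1 to 4 in order. CPM is the count scaled to a common library total. Suv39h1 itself had 25.3, 22.8, 21.6 and 22.6 CPM in Ad-Cre, against 29.0, 27.8, 29.3 and 29.6 CPM in Ad-GFP. The groups did not overlap, and Ad-Cre retained 79.6% of the Ad-GFP level (95% confidence interval 73.5% to 86.2%; edgeR quasi-likelihood test, adjusted p = 3.293e-05), so the targeted transcript was reduced and still present. An antisense gene, Gm14820, overlaps its exons on the other strand over 767 bases. The labelled cell type was checked per gene length. The mesenchymal gene Fn1 was at 1545 ± 11.5 FPKM in Ad-Cre and 1573 ± 37.4 FPKM in Ad-GFP (SD, n = 4 each), and Vim at 75.6 ± 3.65 FPKM in Ad-Cre and 116 ± 2.58 FPKM in Ad-GFP. The fibroblast receptor gene Pdgfra was near the floor, at 0.708 ± 0.131 FPKM in Ad-Cre and 0.968 ± 0.288 FPKM in Ad-GFP, and the epithelial keratin gene Krt8 stood above Vim, at 592 ± 9.36 FPKM in Ad-Cre and 773 ± 19.9 FPKM in Ad-GFP. Every other fibroblast marker but Lum stood above Pdgfra in FPKM in both groups. Col1a1 was at 22.0 ± 1.69 FPKM in Ad-Cre and 35.1 ± 1.90 FPKM in Ad-GFP, and Pdgfrb at 4.68 ± 0.248 FPKM in Ad-Cre and 5.21 ± 0.344 FPKM in Ad-GFP. The epithelial genes Krt7, Krt18, Krt19, Cldn4, Epcam and Cdh1 also stood above Vim in FPKM in both groups. Cldn3 and Cldn7 did so in Ad-Cre only, and Ocln, Esrp1, Esrp2, Grhl2, Elf3 and Tjp3 stood below Vim in both groups. These markers leave the fibroblast label in doubt. Levels are per library, so fewer cells of a type and less RNA per cell cannot be told apart. The 15 general epithelial markers summed to 5346 to 5389 CPM in Ad-Cre and 5859.8 to 6093 CPM in Ad-GFP, with 5 higher and 7 lower of 15 tested. Of the endothelial markers 13 of 14 tested fell, the 15 together summing to 82.9 to 95.8 CPM in Ad-Cre and 167 to 173 CPM in Ad-GFP. All 10 proliferation genes fell, summing to 67.6 to 73.5 CPM in Ad-Cre and 124 to 135 CPM in Ad-GFP. The 10 proximal tubule markers summed to 162 to 186 CPM in Ad-Cre and 114 to 129 CPM in Ad-GFP, with 4 of 5 tested higher. Aqp1 was at 496%, Havcr1 at 154%, Ggt1 at 150% and Cubn at 139% of Ad-GFP, while Lrp2, at 92.7%, did not pass. The transporter gene Slc22a6 was at 0, and Slc34a1, Slc5a2, Miox and Slc27a2 had too few counts to be tested. The 12 fibroblast markers summed to 12651 to 12865 CPM in Ad-Cre and 12714 to 13425 CPM in Ad-GFP, with 6 of 11 tested lower. Fn1 made up 93.7% to 96.0% of that sum in each library. The 11 other fibroblast markers, summed without it after its values were seen, gave 502 to 578 CPM in Ad-Cre and 775 to 821 CPM in Ad-GFP, with Col1a1 at 63.7%, Vim at 66.3% and Thy1 at 21.5% of Ad-GFP (adjusted p = 1.260e-12, 1.051e-14 and 1.422e-11). Over all genes tested, 19.8% were called higher in Ad-Cre and 20.5% lower. The part of these marker shifts in the results below was not tested.

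Of the 33 members, 18 rose in Ad-Cre, 1 fell and 14 did not pass the test. The rises made up 54.5% of the members, whereas 19.8% of the 13337 genes tested rose; falls made up 20.5% of all genes tested, and changes in either direction 40.3%. The median log2 fold change was 0.18 over the members and 0.00 over all genes tested. Changes were small: the largest rise was to 134% of Ad-GFP (Hsd17b7) and the only fall was to 78.3% (Abca1). Rise, fall and change are used for an adjusted p under 0.05 in edgeR's quasi-likelihood test, adjusted over all genes tested.

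Overlap between the groups was common among the calls. In 8 of the 18 rising members every Ad-Cre library lay above every Ad-GFP library, and in 10 the groups overlapped. Counting called and uncalled members, 9 of 33 (27.3%) had Ad-Cre entirely above Ad-GFP, against 17.2% of all genes tested, and 1 had it entirely below, against 18.2%; separate groups in either direction made up 35.4% of all genes tested. The test shares its estimate of spread across genes, whose common biological coefficient of variation was 2.89%, while the median coefficient of variation of the synthesis enzymes was 12.0% in Ad-Cre and 6.29% in Ad-GFP. In the authors' deposited table, 14 members were higher and 1 lower at an FDR under 0.05, where 18.7% of all 22322 rows pass in either direction. Those rows include 4667 without a count in any library, whereas all 33 members had enough reads to be tested, so the 2 shares have unlike bases. The 4 members called here but not in the authors' deposited table were Mvk, Pmvk, Lss and Msmo1.

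**Figure D1:**
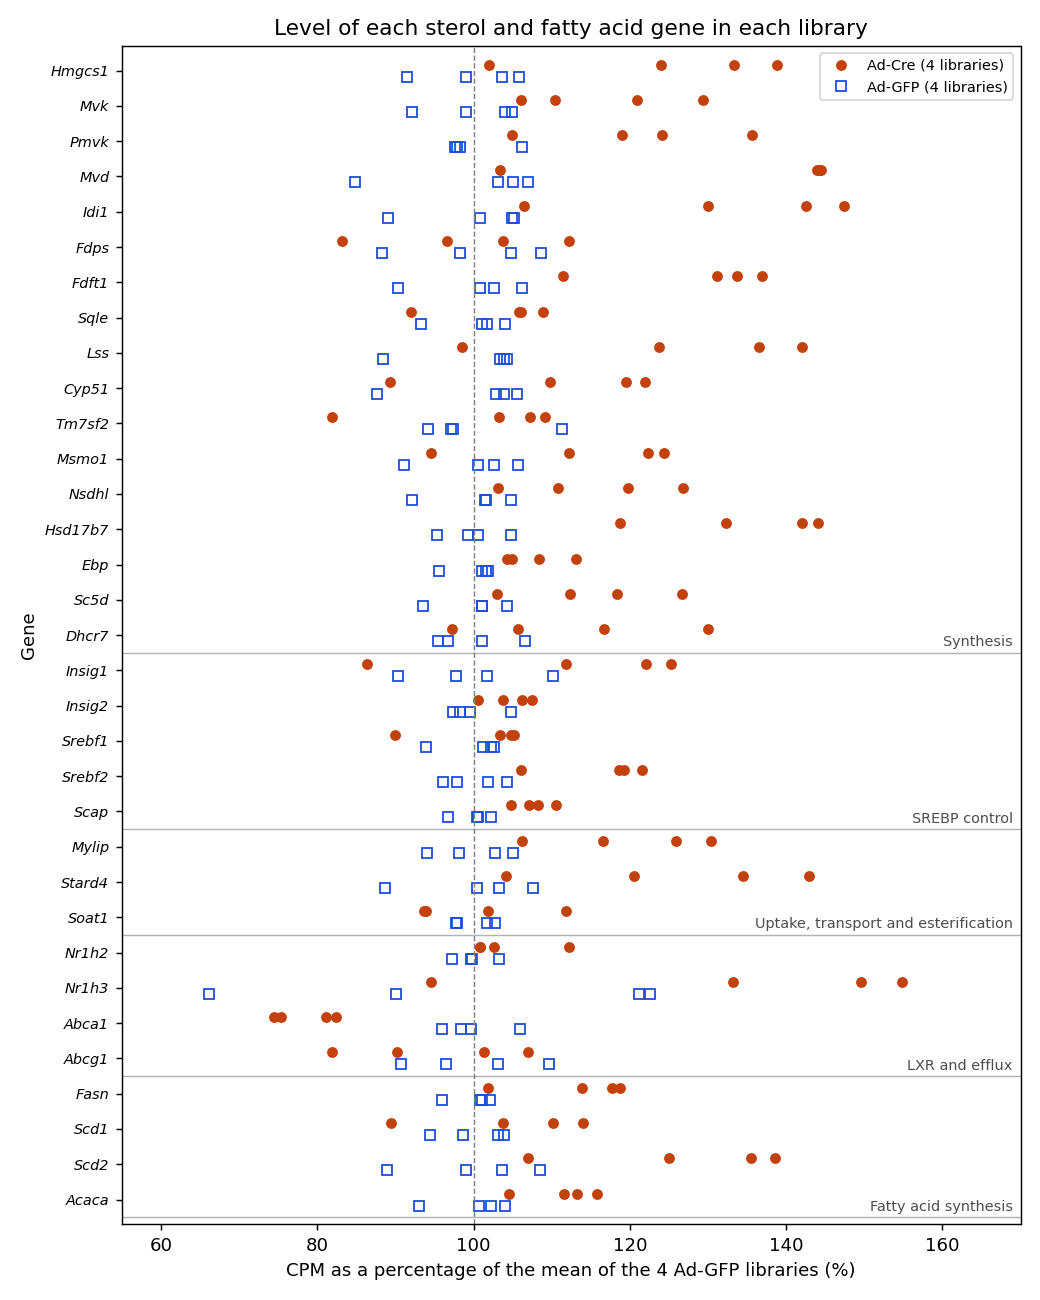
Level of each of the 33 genes in each library, as CPM relative to the mean of the 4 Ad-GFP libraries (x axis, %), with filled circles for Ad-Cre and open squares for Ad-GFP. Ad-Cre circles lie mostly to the right in the synthesis block, reaching up to 147% for Idi1, and all 4 lie to the left for Abca1.

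The 17 synthesis enzymes had 11 rises (64.7%, against 19.8% of all genes tested), 0 falls and 6 genes that did not pass. The rises included genes at the start, middle and end of the route. The median log2 fold change was 0.20. The edgeR count of 0 falls was also 0 at an unadjusted p under 0.05, and 0 with DESeq2 and limma-voom. Their summed level was 1691, 1863, 1806 and 1429.7 CPM in Ad-Cre, against 1472, 1543, 1512 and 1331 CPM in Ad-GFP. Ad-Cre replicates 1 to 3 stood above all Ad-GFP libraries in this sum, and Ad-Cre replicate 4 lay within the Ad-GFP range.

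Hmgcs1, which makes HMG-CoA at the entry to the pathway (chr13:119690379-119708260, plus strand, GRCm38), had 348, 389.5, 374 and 286 CPM in Ad-Cre, against 278, 297, 291 and 257 CPM in Ad-GFP. Ad-Cre replicate 4 lay inside the Ad-GFP range and the other 3 above it. The log2 fold change was 0.32 ± 0.057 (SE, n = 4 per group; adjusted p = 8.288e-05), whereas exact permutation of the CPM values gave p = 0.0857, two-sided. Its promoter, shown above, carried the sterol response element and 4 CCAAT boxes. Its exons overlap 557 bases of the antisense gene Gm48342 on the other strand.

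The mevalonate kinase gene Mvk had 18.4, 17.2, 15.7 and 15.0 CPM in Ad-Cre, against 14.0, 14.9, 13.1 and 14.8 CPM in Ad-GFP. All 4 Ad-Cre libraries lay above Ad-GFP, by a log2 fold change of 0.22 ± 0.074 (adjusted p = 0.0208). Its call was lost without Ad-Cre replicate 1 (adjusted p = 0.0815), Ad-Cre replicate 2 (0.0587) or Ad-GFP replicate 3 (0.0829). Pmvk, the phosphomevalonate kinase gene, had 11.2, 11.7, 12.8 and 9.92 CPM in Ad-Cre, against 9.29, 9.24, 10.0 and 9.25 CPM in Ad-GFP, and the groups overlapped through Ad-Cre replicate 4 and Ad-GFP replicate 3. It rose by a log2 fold change of 0.27 ± 0.089 (adjusted p = 0.0158), a call lost without Ad-Cre replicate 3 (adjusted p = 0.0725).

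Mvd, encoding the decarboxylase that yields isopentenyl diphosphate, had 25.3, 25.2, 25.3 and 18.1 CPM in Ad-Cre, against 18.7, 18.4, 18.1 and 14.9 CPM in Ad-GFP. Ad-Cre replicates 1 to 3 were nearly equal and Ad-Cre replicate 4 lay within the Ad-GFP range, and the log2 fold change was 0.42 ± 0.089 (adjusted p = 0.0005341). Idi1, the isomerase that readies isoprenoid units for joining (chr13:8885501-8892451, plus strand), had 138, 156, 151 and 113 CPM in Ad-Cre, against 107, 111, 111 and 94.4 CPM in Ad-GFP. The groups did not overlap, with a log2 fold change of 0.40 ± 0.065 (adjusted p = 2.152e-05).

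Fdps, the farnesyl diphosphate synthase gene that follows Idi1 in the route, did not pass the test. It had 199, 231, 214 and 171 CPM in Ad-Cre, against 202, 224, 216 and 182 CPM in Ad-GFP, and Ad-Cre libraries lay on both sides of the Ad-GFP range (log2 fold change -0.02 ± 0.059; adjusted p = 0.858). Transcripts of 4 other genes, not analysed here, match Fdps at 96.1% to 98.9% identity over 605 to 1066 bases, and the sources used here do not say how shared reads were counted. A further gene, Gm43738, overlaps Fdps on the same strand over 1124 bases and had 0 to 3 counts. Such matches also exist for Idi1, from 2 genes over 681 and 684 bases, and for the next enzyme, Fdft1, from 1 gene over 1249 bases. Dhcr7 and Msmo1 share stretches of 200 to 226 bases with transcripts of several other genes. On the other strand, exons of Gm48574 overlap Idi1 over 323 bases, 4930483K19Rik overlaps Lss over 381, Akap9 overlaps Cyp51 over 166 and Rai1 overlaps Srebf1 over 109.

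Fdft1, squalene synthase and the first enzyme committed to sterols (chr14:63145150-63179578, minus strand), had 141, 144, 147 and 119.9 CPM in Ad-Cre, against 108, 114, 110.3 and 97.2 CPM in Ad-GFP. Every Ad-Cre library was above every Ad-GFP library, and the log2 fold change was 0.36 ± 0.049 (adjusted p = 1.620e-06). Its exons overlap those of Ctsb on the other strand over 774 bases, and the sources used here do not say if counting used strand. Sqle, the squalene epoxidase gene, had 132, 136, 133 and 115 CPM in Ad-Cre, against 126, 130.1, 127 and 117 CPM in Ad-GFP. The groups overlapped, and the log2 fold change of 0.04 ± 0.041 did not pass (adjusted p = 0.418), though it did without Ad-Cre replicate 4 (adjusted p = 0.031).

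Lss, which closes the rings to form lanosterol, had 65.4, 75.1, 72.2 and 52.1 CPM in Ad-Cre, against 54.9, 55.1, 54.7 and 46.7 CPM in Ad-GFP. Ad-Cre replicate 4 lay inside the Ad-GFP range, the other 3 lay above it, and the log2 fold change was 0.32 ± 0.074 (adjusted p = 0.00107). After lanosterol, Cyp51, the lanosterol demethylase gene, averaged 198 ± 26.7 CPM in Ad-Cre and 179.5 ± 14.9 CPM in Ad-GFP (SD, n = 4 each; adjusted p = 0.0811). It passed the test without Ad-Cre replicate 4 (adjusted p = 0.0003073). The sterol reductase gene Tm7sf2 averaged 14.7 ± 1.84 CPM in Ad-Cre and 14.7 ± 1.12 CPM in Ad-GFP (adjusted p = 0.993), and its exons overlap those of Vps51 on the same strand over 532 bases.

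The complex that removes methyl groups from the sterol nucleus had 3 rises. Its oxidase gene Msmo1 had 143, 158, 155 and 120.2 CPM in Ad-Cre, against 128, 134, 130.4 and 116 CPM in Ad-GFP, with Ad-Cre replicate 4 inside the Ad-GFP range. It rose by a log2 fold change of 0.18 ± 0.056 (adjusted p = 0.0122), but not without Ad-Cre replicate 2 (adjusted p = 0.0655), Ad-Cre replicate 3 (0.0622) or Ad-GFP replicate 4 (0.0652). Nsdhl, the dehydrogenase of the complex, had 57.4, 62.0, 65.7 and 53.4 CPM in Ad-Cre, against 52.6, 54.3, 52.5 and 47.7 CPM in Ad-GFP, and only Ad-Cre replicate 4 overlapped Ad-GFP. Its log2 fold change was 0.20 ± 0.052 (adjusted p = 0.00304).

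Hsd17b7, the keto-reductase of the same complex (chr1:169949535-169969241, minus strand), had 52.9, 57.6, 56.8 and 47.5 CPM in Ad-Cre, against 40.2, 39.7, 41.9 and 38.1 CPM in Ad-GFP. The groups were well apart, the lowest Ad-Cre library standing above the highest Ad-GFP one, and the log2 fold change of 0.43 ± 0.053 was the largest rise among the members that passed (adjusted p = 3.441e-07). Among the last enzymes, Sc5d, a sterol desaturase gene, had 96.0, 108, 101 and 88.0 CPM in Ad-Cre, against 86.4, 86.4, 89.1 and 79.9 CPM in Ad-GFP, overlapping only through Ad-Cre replicate 4, and rose by a log2 fold change of 0.20 ± 0.046 (adjusted p = 0.0009018).

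Ebp, the sterol isomerase gene, had 26.7, 27.8, 25.7 and 25.8 CPM in Ad-Cre, against 25.1, 25.0, 23.5 and 24.9 CPM in Ad-GFP. Every Ad-Cre library lay above every Ad-GFP library, yet the log2 fold change of 0.11 ± 0.053 did not pass (adjusted p = 0.11). Dhcr7, which reduces 7-dehydrocholesterol to cholesterol, averaged 25.2 ± 3.18 CPM in Ad-Cre and 22.5 ± 1.13 CPM in Ad-GFP (adjusted p = 0.0597). It passed without Ad-Cre replicate 1 (adjusted p = 0.043), Ad-Cre replicate 4 (0.00902) or Ad-GFP replicate 2 (0.0462). On the FPKM scale, limma called 6 of the 17 enzymes higher, and Hmgcs1, Mvk, Msmo1, Nsdhl and Sc5d lost their call there (adjusted p with log2(FPKM + 1) of 0.0718, 0.0594, 0.218, 0.0842 and 0.226). DESeq2 also left Mvk (adjusted p = 0.0584) and Msmo1 (0.152) uncalled.

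**Figure D2:**
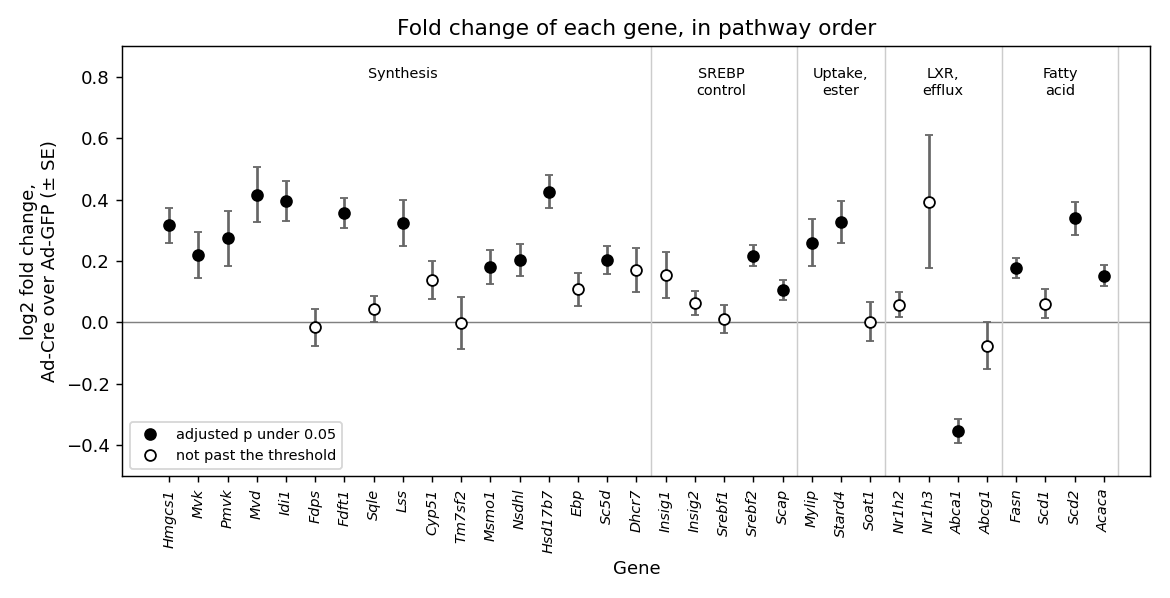
The log2 fold change of Ad-Cre over Ad-GFP for each gene in pathway order, with its standard error from the edgeR fit (n = 4 per group); filled points passed the adjusted threshold. Fdps and Sqle sit near 0 between neighbours Idi1, Fdft1 and Lss at 0.32 to 0.40, and Abca1 is the single filled point below 0.

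The order of the libraries within a group recurred from enzyme to enzyme. Ad-Cre replicate 4 was the lowest Ad-Cre library for 16 of the 17 enzymes, and Ad-GFP replicate 4 was the lowest Ad-GFP library for 14 of 17. The replicate 2 libraries were the highest of their group for 11 of 17 enzymes in each group. The median enzyme stood at 112%, 124%, 122% and 103% of its Ad-GFP mean in Ad-Cre replicates 1 to 4, against 101%, 105%, 103% and 92.2% in Ad-GFP replicates 1 to 4. Without Ad-Cre replicate 4, 23 members rose in place of 18, and Cyp51, Dhcr7, Insig1, Scd1 and Sqle were the added calls. Without both replicate 4 libraries, an alternative chosen after these values were seen, 22 members rose and 1 fell.

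**Figure D3:**
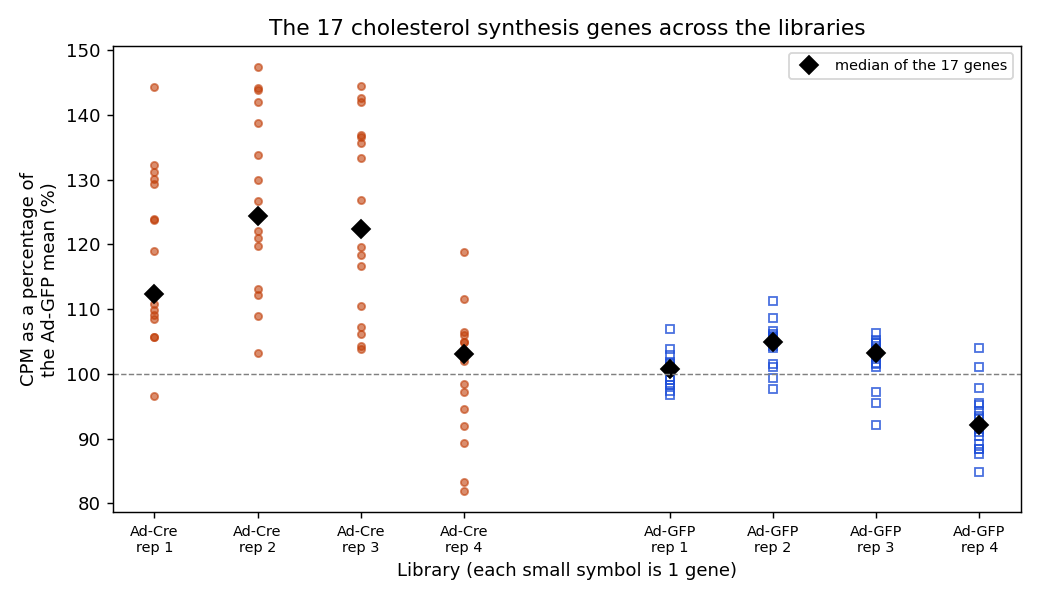
Levels of the 17 synthesis enzymes in each library, as CPM relative to each gene's Ad-GFP mean (y axis, %); small symbols are genes and black diamonds their median. The median lies at 112% to 124% in Ad-Cre replicates 1 to 3 and at 103% in Ad-Cre replicate 4, and at 92.2% in Ad-GFP replicate 4.

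To set the enzymes against each other within a library, CPM ratios were compared for all 16 pairs of neighbours in the order used here. In 7 pairs the groups did not overlap. The set does not hold every enzyme of the route, so neighbours such as Hmgcs1 and Mvk need not be successive steps. Each of the 7 had an exact permutation p = 0.0286, two-sided, the smallest that 4 against 4 libraries allow, which adjusts to 0.0653 over the 16 pairs and so does not pass. The ratio of Fdps to Idi1 was 1.44, 1.48, 1.42 and 1.52 in Ad-Cre, against 1.89, 2.01, 1.94 and 1.93 in Ad-GFP. That of Fdft1 to Fdps was 0.623 to 0.709 in Ad-Cre and 0.511 to 0.536 in Ad-GFP, and that of Sqle to Fdft1 was 0.902 to 0.96 in Ad-Cre and 1.14 to 1.20 in Ad-GFP. Relative to Fdps and Sqle, the flanking enzymes were higher in every Ad-Cre library than in any Ad-GFP library. This restates the single-gene results, where Idi1, Fdft1 and Lss rose while Fdps and Sqle did not pass. Pairs that share an enzyme are not independent, and the share of separate ratios among other gene pairs was not computed. The other pairs with separate groups were Lss over Sqle (0.452 to 0.551 in Ad-Cre and 0.4 to 0.434 in Ad-GFP), Cyp51 over Lss (2.92 to 3.08 in Ad-Cre and 3.36 to 3.44 in Ad-GFP), Hsd17b7 over Nsdhl (0.865 to 0.929 in Ad-Cre and 0.732 to 0.798 in Ad-GFP) and Ebp over Hsd17b7 (0.452 to 0.544 in Ad-Cre and 0.561 to 0.653 in Ad-GFP).

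The 5 genes of SREBP control had 2 rises (40.0%, against 19.8% of all genes tested) and 0 falls, and the 3 others did not pass. A group of 5 is too small to differ clearly from such shares. Falls also numbered 0 at an unadjusted p under 0.05 and with DESeq2. Srebf2, encoding the SREBP that mainly drives cholesterol genes (chr15:82147181-82205379, plus strand), had 232, 238, 233 and 207 CPM in Ad-Cre, against 191, 204, 199 and 188 CPM in Ad-GFP. The groups did not overlap, and it rose by a log2 fold change of 0.22 ± 0.034 (adjusted p = 1.293e-05). Its promoter, shown above, held 1 CCAAT box and 5 GC boxes but no exact match to the sterol response element as spelled here.

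Srebf1, encoding the SREBP isoforms that favour fatty acid genes, had 69.3, 68.1, 69.0 and 59.2 CPM in Ad-Cre, against 61.9, 67.5, 66.7 and 67.3 CPM in Ad-GFP. Ad-Cre replicate 4 was the lowest library, the groups overlapped, and the log2 fold change of 0.01 ± 0.045 did not pass (adjusted p = 0.87). The CPM ratio of Srebf2 to Srebf1 was 3.35, 3.49, 3.38 and 3.50 in Ad-Cre, against 3.09, 3.02, 2.98 and 2.79 in Ad-GFP. The ratio was higher in every Ad-Cre library (exact permutation p = 0.0286, two-sided; 0.0476 adjusted over the 5 pairs of related members compared).

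Scap, the SREBP escort gene, had 86.0, 83.3, 85.0 and 87.8 CPM in Ad-Cre, against 79.8, 79.9, 76.8 and 81.2 CPM in Ad-GFP. The groups were narrow and did not overlap, and Scap rose by a log2 fold change of 0.11 ± 0.032 (adjusted p = 0.0103), to 108% of Ad-GFP. That call was lost with limma on log2(FPKM + 1) (adjusted p = 0.284). Its exons overlap 985 bases of the gene 5830462I19Rik on the other strand.

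Insig1, itself a target of SREBP and an anchor of SCAP, had 69.3, 77.6, 75.7 and 53.6 CPM in Ad-Cre, against 63.0, 68.3, 60.6 and 56.0 CPM in Ad-GFP. Ad-Cre replicate 4 was the lowest of all 8 libraries and the groups overlapped, with a log2 fold change of 0.15 ± 0.075 (adjusted p = 0.105, and 0.0003049 without Ad-Cre replicate 4). Its relative Insig2 had 59.9, 59.1, 57.8 and 56.0 CPM in Ad-Cre, against 55.4, 54.2, 54.7 and 58.3 CPM in Ad-GFP, with overlapping groups and a log2 fold change of 0.06 ± 0.039 (adjusted p = 0.197). Their ratio did not separate the groups (0.956 to 1.31 in Ad-Cre and 0.96 to 1.26 in Ad-GFP; exact permutation p = 0.514, two-sided).

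Among the 3 genes of uptake, transport and esterification, 2 rose (66.7%, against 19.8% of all genes tested), in a group too small to differ clearly from that share. Mylip, an E3 ubiquitin ligase gene induced by LXR whose product sends lipoprotein receptors for degradation (chr13:45389742-45412022, plus strand), had 15.7, 14.5, 13.2 and 16.2 CPM in Ad-Cre, against 12.2, 12.8, 11.7 and 13.1 CPM in Ad-GFP. The groups did not overlap (log2 fold change 0.26 ± 0.077; adjusted p = 0.0092). Stard4, encoding a soluble carrier that moves cholesterol between membranes, had 56.5, 63.0, 67.0 and 48.8 CPM in Ad-Cre, against 48.4, 47.1, 50.4 and 41.6 CPM in Ad-GFP. It overlapped only through Ad-Cre replicate 4 and rose by a log2 fold change of 0.33 ± 0.069 (adjusted p = 0.0004277), a call lost with limma on log2(FPKM + 1) (adjusted p = 0.102).

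Soat1, which esterifies cholesterol for storage, gave different answers in counts and in FPKM. Its counts differed little, at 22.0, 20.2, 20.3 and 24.2 CPM in Ad-Cre, against 22.0, 22.2, 21.1 and 21.1 CPM in Ad-GFP (log2 fold change 0.00 ± 0.063; adjusted p = 0.978). Its FPKM averaged 6.38 ± 0.317 FPKM in Ad-Cre and 7.49 ± 0.292 FPKM in Ad-GFP (SD, n = 4 each), and limma on log2(FPKM + 1) called it lower, with a log2 fold change of -0.20 (adjusted p = 0.00775). The gene length implied by each count and its FPKM was 3.66, 2.98, 3.14 and 3.73 kb in Ad-Cre, against 2.99, 3.09, 2.69 and 2.87 kb in Ad-GFP. The implied length averaged 116% of Ad-GFP, with overlapping groups (exact permutation p = 0.0857, two-sided). Such a shift of over 5% was seen in 3 of the 33 members (Soat1, Abcg1 and Insig2) and in 8.53% of the 10097 genes with at least 100 counts in every library.

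LXR signalling and efflux was the only group of members with a fall, in Abca1, while its other 3 members did not pass. That is 1 of 4 (25.0%), near the 20.5% of all genes tested that fell. The count of rises was 0 by edgeR's adjusted p, by its unadjusted p under 0.05, and by DESeq2. Over all genes tested, 19.8% rose by adjusted p, and a group of 4 is too small to differ clearly from such shares. The LXR-induced gene Mylip, which rose, was counted under uptake. Abca1, the pump that loads cholesterol onto apolipoprotein A-I (chr4:53030787-53159895, minus strand), had 64.4, 58.2, 58.9 and 63.4 CPM in Ad-Cre, against 76.9, 77.9, 75.1 and 82.8 CPM in Ad-GFP. Every Ad-Cre library lay below every Ad-GFP library, and it fell by 0.35 ± 0.04 on the log2 scale (SE, n = 4 per group; adjusted p = 7.504e-08). Abca1 had the smallest p of the 33 members and kept its call in all alternatives run.

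The second pump gene, Abcg1, had 21.0, 17.7, 16.1 and 19.9 CPM in Ad-Cre, against 20.3, 19.0, 17.8 and 21.6 CPM in Ad-GFP. The groups overlapped, and the log2 fold change of -0.08 ± 0.076 did not pass (adjusted p = 0.457). The CPM ratio of Abca1 to Abcg1 was 3.06, 3.28, 3.66 and 3.18 in Ad-Cre, against 3.79, 4.11, 4.21 and 3.84 in Ad-GFP. It was lower in every Ad-Cre library (exact permutation p = 0.0286, two-sided; 0.0476 adjusted over 5 pairs). In FPKM the 2 groups' ratios overlapped (exact permutation p = 1.0), and the implied length of Abcg1 varied between 2.91 and 5.15 kb over the 8 libraries.

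The receptor genes showed no call. Nr1h2, encoding the widely expressed LXRβ, had 58.7, 57.7, 57.7 and 64.2 CPM in Ad-Cre, against 57.1, 59.1, 55.7 and 57.1 CPM in Ad-GFP (log2 fold change 0.06 ± 0.041; adjusted p = 0.272). Nr1h3, encoding LXRα, which is prominent in liver, adipose tissue and macrophages, was scarce, at 2.69, 1.64, 2.60 and 2.31 CPM in Ad-Cre, against 1.15, 2.10, 2.13 and 1.56 CPM in Ad-GFP. Its groups overlapped, the log2 fold change was 0.39 ± 0.22 (adjusted p = 0.153), and its smallest library held 20 counts.

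Macrophages express Abca1, Abcg1 and Nr1h3, of which Abca1 alone fell, and most macrophage markers tested were lower in the same libraries. The 16 macrophage and leukocyte markers summed to 274 to 286 CPM in Ad-Cre and 316 to 367 CPM in Ad-GFP. Of 15 tested, 11 fell (median log2 fold change -0.29), against 20.5% of all genes tested. Ptprc, Itgam, Mrc1 and Cd14 did not pass. Cd14 went the other way, at 107% of Ad-GFP, with every Ad-Cre library above every Ad-GFP library (adjusted p = 0.316). The lysozyme gene Lyz2 averaged 113 ± 3.25 CPM in Ad-Cre and 126 ± 9.30 CPM in Ad-GFP, and the complement gene C1qa averaged 19.1 ± 0.884 CPM in Ad-Cre and 30.4 ± 3.72 CPM in Ad-GFP (SD, n = 4 each). Cd163 was at 0 in all Ad-Cre libraries, with at most 1 count in an Ad-GFP library. The part of macrophage transcripts in the fall of Abca1 was not tested.

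Of the 4 fatty acid synthesis genes 3 rose (75.0%, against 19.8% of all genes tested) and 0 fell. As for LXR and efflux, a group of 4 is too small to differ clearly from such shares. Falls were also 0 at an unadjusted p under 0.05 and with DESeq2. Fasn, the multi-enzyme that builds palmitate (chr11:120805846-120824547, minus strand), had 549, 530.3, 553 and 475 CPM in Ad-Cre, against 447, 470.0, 471 and 476 CPM in Ad-GFP. Ad-Cre replicate 4 lay just below the highest Ad-GFP library, and Fasn rose by a log2 fold change of 0.18 ± 0.033 (adjusted p = 0.0001164), a call lost with limma on log2(FPKM + 0.1) (adjusted p = 0.0557). Acaca, which supplies malonyl-CoA, had 139, 134, 135 and 125 CPM in Ad-Cre, against 121, 125, 122 and 111 CPM in Ad-GFP, with groups that did not overlap, and rose by a log2 fold change of 0.15 ± 0.035 (adjusted p = 0.001). Acaca lost its call with limma on log2(FPKM + 1) (adjusted p = 0.379), and another gene, Gm5182, not analysed here, matches it at 99.2% over 6118 bases.

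The 2 desaturase genes, whose products put a double bond into saturated fatty acids, differed. Scd2 (chr19:44293674-44306864, plus strand) had 897, 994, 972 and 767 CPM in Ad-Cre, against 710.4, 778, 743 and 637 CPM in Ad-GFP. Only Ad-Cre replicate 4 overlapped Ad-GFP, and the log2 fold change was 0.34 ± 0.054 (adjusted p = 1.449e-05). Its neighbour Scd1 had 145, 159, 153 and 124 CPM in Ad-Cre, against 137, 144, 145 and 131 CPM in Ad-GFP, with overlapping groups (log2 fold change 0.06 ± 0.048; adjusted p = 0.33, and 0.00631 without Ad-Cre replicate 4). The ratio of Scd2 to Scd1 was 6.20, 6.26, 6.34 and 6.16 in Ad-Cre, against 5.17, 5.42, 5.14 and 4.85 in Ad-GFP. It was higher in every Ad-Cre library (exact permutation p = 0.0286, two-sided; 0.0476 adjusted over 5 pairs). Their transcripts match at 95.5% over 623 bases, so the split of reads between them is uncertain there. Adipocyte transcripts were near the floor in these libraries: the 8 markers summed to 5.62 to 6.10 CPM in Ad-Cre and 6.97 to 8.66 CPM in Ad-GFP, and Plin1, Cidec and Cfd had no count in any library.

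**Figure D4:**
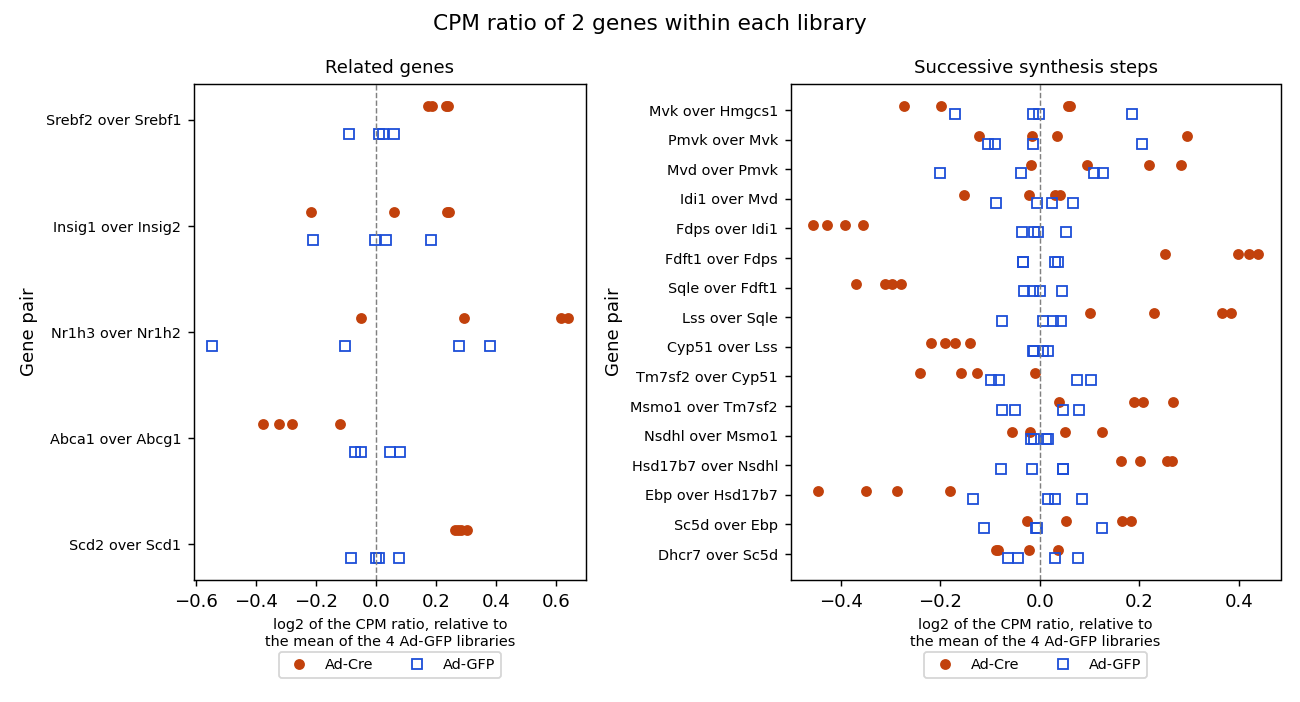
CPM ratio of 2 genes within each library, as log2 relative to the mean of the Ad-GFP libraries (x axis). Shown are 5 pairs of related genes (left) and 16 pairs of synthesis enzymes that are neighbours in the order used here (right). The Ad-Cre circles of Scd2 over Scd1 cluster tightly right of the Ad-GFP squares, and those of Fdps over Idi1 and Sqle over Fdft1 lie to the left.

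Compared per gene length, the members ran from 168 down to 0.99 FPKM in Ad-GFP. Fdps and Scd2 led, with Fdps at 164 ± 20.7 FPKM in Ad-Cre and 168 ± 15.5 FPKM in Ad-GFP and Scd2 at 175 ± 18.4 FPKM in Ad-Cre and 139 ± 12.3 FPKM in Ad-GFP (SD, n = 4 each). In Ad-GFP these differed by more than either SD, whereas in Ad-Cre they lay within 1 SD of each other. Hmgcs1 followed at 107 ± 14.4 FPKM in Ad-Cre and 88.3 ± 7.52 FPKM in Ad-GFP, then Msmo1 at 70.4 ± 8.46 FPKM in Ad-Cre and 62.8 ± 4.03 FPKM in Ad-GFP and Fasn at 60.1 ± 3.94 FPKM in Ad-Cre and 53.8 ± 1.53 FPKM in Ad-GFP. Below them Cyp51, Sqle and Idi1 stood at 46.0, 45.7 and 44.3 FPKM in Ad-GFP, within their SDs of each other. At the low end Abca1 was at 5.92 ± 0.304 FPKM in Ad-Cre and 7.67 ± 0.33 FPKM in Ad-GFP, Mylip at 4.95 ± 0.408 FPKM in Ad-Cre and 4.17 ± 0.271 FPKM in Ad-GFP and Nr1h3 at 1.29 ± 0.266 FPKM in Ad-Cre and 0.99 ± 0.275 FPKM in Ad-GFP.

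**Figure D5:**
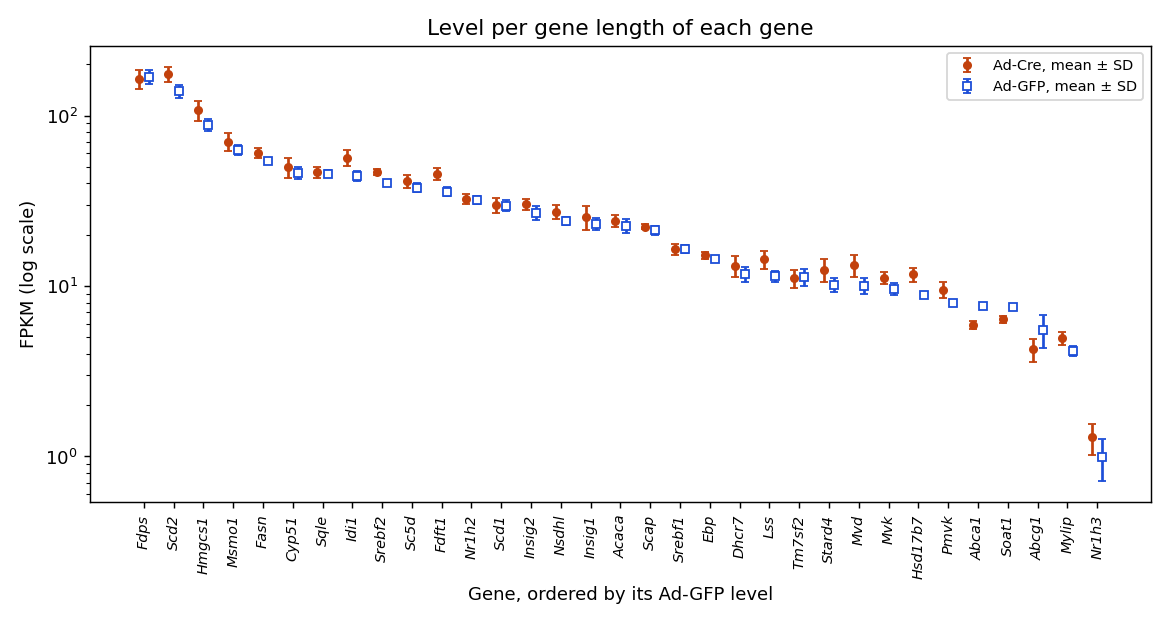
Mean FPKM with SD (n = 4 per group, log axis) of the 33 genes, ordered by their level in Ad-GFP, with filled circles for Ad-Cre and open squares for Ad-GFP. Levels run from 168 FPKM for Fdps to 0.99 FPKM for Nr1h3 in Ad-GFP.

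Other genes of the same pathways were taken from lists drawn up by function, and their counts stand beside the 19.8% of all genes tested that rose and the 20.5% that fell. In the list of the isoprenoid branch, 4 of 14 rose and 1 fell. The 4 rises include Acat2, at 125% of Ad-GFP (adjusted p = 0.0008966), which makes acetoacetyl-CoA for the pathway and so stands before the branch. Ggps1, the geranylgeranyl diphosphate synthase gene, was at 112% (adjusted p = 0.00133), and Zmpste24, a protease that matures farnesylated lamin A, at 111% (adjusted p = 0.0003074). Among 17 genes of SREBP processing and sterol-regulated degradation, 6 rose and 2 fell (median log2 fold change 0.04). Erlin2, an endoplasmic reticulum protein that takes part in sterol-regulated degradation, had 177, 184, 180.5 and 177 CPM in Ad-Cre, against 147, 152, 146 and 148 CPM in Ad-GFP. The groups did not overlap (log2 fold change 0.28 ± 0.026; adjusted p = 2.111e-09). Mbtps2, a Golgi protease that releases SREBPs, was at 117% of Ad-GFP (adjusted p = 1.762e-05).

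Lipoprotein receptors and lysosomal cholesterol genes had 1 rise and 4 falls among 12. The endocytic receptor gene Lrp1 was at 89.0% of Ad-GFP (adjusted p = 8.626e-05) and the macrophage scavenger receptor gene Msr1 at 72.7% (adjusted p = 0.0001915). Lrpap1, which encodes a chaperone of receptors such as Lrp1, rose to 117% (adjusted p = 0.0001642). Other LXR targets, partners and oxysterol enzymes had 1 rise and 4 falls among 12 tested of 14. The transporter gene Abca7 was at 83.9% (adjusted p = 0.0008109), the oxysterol hydroxylase gene Cyp39a1 at 82.7% (adjusted p = 0.00101) and the phospholipid transfer protein gene Pltp at 68.9% (adjusted p = 0.00275).

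Among 12 genes of sterol transport and ester turnover, 3 rose and 3 fell. Gramd1c, of a family that carries cholesterol from the plasma membrane to the endoplasmic reticulum, was at 156% (adjusted p = 1.113e-05), its relative Gramd1a at 86.8% (adjusted p = 0.0001404), and the oxysterol binding protein gene Osbp at 112% (adjusted p = 3.015e-05). Of 16 tested other genes of fatty acid and triglyceride synthesis, 3 rose and 4 fell (median log2 fold change -0.05). Acly, which makes cytosolic acetyl-CoA from citrate, was at 111% (adjusted p = 0.0002448), the elongase gene Elovl6 at 119.7% (adjusted p = 0.0009043), and Mid1ip1, whose product activates acetyl-CoA carboxylase, at 88.8% (adjusted p = 0.0001653).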

How the data were processed

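RNA was sequenced from 4 Ad-Cre and 4 Ad-GFP samples; per the labels' protocols it was extracted with Trizol. The authors deposited 1 table with read counts per gene, FPKM per library, the mean FPKM of each group, a log2 fold change of these means, and p-values with an FDR, per the file headers; the sources used here name no test, aligner, counter, strand setting or annotation. The submitters' processing notes name GRCm38 and mm10.

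The deposited counts went unchanged into edgeR 4.0.16 under R 4.3.3 (filterByExpr, which kept 13337 genes; TMM factors 0.992 to 1.01; quasi-likelihood F-test without a block, two-sided, Benjamini-Hochberg adjustment over all genes tested, threshold 0.05). Each standard error was taken as |log2 fold change| divided by the root of F. Single values and ratios were compared by exact permutation of the 8 libraries. Coordinates and exon overlaps came from GENCODE M21 (GRCm38), promoters from RefSeq, and similar transcripts from blastn 2.17.0 (at least 95% identity over at least 200 bases). The implied length is the count divided by FPKM and scaled by the library total. The fit was tested on simulated data.

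All members are named; of each neighbouring list, the 3 called genes of smallest p are, except 1 that is not reported here. Promoters were limited to 4. Members and lists were chosen with earlier results of these data known. Alternatives were RLE and upper-quartile factors, no filter, a floor of 5 on the mean CPM, limma-voom, DESeq2 1.42.0, limma 3.58.1 on log2(FPKM + 1) or log2(FPKM + 0.1) where mean FPKM reached 1, a replicate block, leaving out each library, and thinning to the smallest library total.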

Additional observations from a re-analysis of the deposited data

Results flagged for a closer look

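Among 68 groups of 4 libraries (33 members and Suv39h1 in each condition), 8 held a library whose gap to its nearest neighbour exceeded Dixon's critical share of the group's range; chance flags about 1 in 20 groups. Low values were Mvd in Ad-Cre replicate 4 (18.1 CPM), Srebf1 in Ad-Cre replicate 4 (59.2 CPM), Lss and Cyp51 in Ad-GFP replicate 4 (46.7 and 157 CPM), Ebp in Ad-GFP replicate 3 (23.5 CPM) and Srebf1 in Ad-GFP replicate 1 (61.9 CPM). High values were Nr1h2 in Ad-Cre replicate 4 (64.2 CPM) and Pmvk in Ad-GFP replicate 3 (10.0 CPM).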

How the results depend on the processing

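Suv39h1 stayed lower and past the threshold in all alternatives, with log2 fold changes from -0.37 to -0.27, and Abca1 likewise, from -0.38 to -0.33. The number of rising members was 18 under RLE and upper-quartile factors, limma-voom, thinning and a mean of at least 5 CPM, 16 under DESeq2 and 21 without a filter, which added Cyp51, Dhcr7 and Insig1, as the replicate block did. Limma on log2(FPKM + 1) gave 10 higher and 2 lower members, and on log2(FPKM + 0.1) 9 and 2; synthesis enzymes higher numbered 6 under both. Soat1, uncalled in counts, was lower there (log2 fold change -0.20 and -0.23), and its implied length was longer in Ad-Cre. Leaving out 1 library gave 16 to 23 members and 9 to 14 enzymes higher, 1 member and 0 enzymes lower. In those fits, 7 calls were lost, 7 were gained and 0 reversed. In the remaining alternatives 19 calls were lost and 6 gained, and Soat1 turned from uncalled to lower in both FPKM fits.

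The replicate block raised the count of rising members to 21 (13 synthesis enzymes) and left Abca1 as the single fall. The block was left out of the main fit because the labels state no pairing. Over all genes tested, deviations of same-numbered libraries correlated at 0.0831, 0.104, 0.0076 and -0.0115 for replicates 1 to 4. Of the 4 Ad-Cre libraries, 2 correlated best with their own number. Among the 17 synthesis enzymes, though, replicate 4 was the lowest library for 16 in Ad-Cre and for 14 in Ad-GFP. Upper-quartile factors moved the share of higher calls over all genes to 2164 higher and 3089 lower, against 2641 and 2729 with TMM; log2(FPKM + 1) gave 1353 and 2026, and log2(FPKM + 0.1) 1311 and 1970. The 21 ratios were taken again in FPKM and without each library. Of these results 186 stayed within the within-group SD of the main value, 3 moved further and 0 reversed. Abca1 over Abcg1 moved to a log2 difference of -0.01 in FPKM, and Cyp51 over Lss from -0.18 in CPM to -0.21 in FPKM. The fewest counts behind a member's value were 20, for Nr1h3. Across scalings the median log2 fold change of all genes stayed between -0.02 and 0.00.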
